A study of Rattus norvegicus with 44 samples.

Results

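Slc35d3 (ENSRNOG00000012311) is 1 of the 18347 gene identifiers measured in the dentate gyrus (DG) of 44 male F344 rats, an inbred laboratory strain, with 1 RNA library per rat. It was selected on its level, which was lower than in young rats in all 3 groups of older rats, so its differences from the young rats are given as a description and were not tested. The young rats received vehicle and were 6 months old (YNG, n = 10). The older rats were 12 months old when treatment began and about 18 months old when tissue was collected. They received vehicle (AV, n = 12), ABT-263 at 12 mg/kg (AA, n = 11), or dasatinib at 1.2 mg/kg together with quercetin at 12 mg/kg (ADQ, n = 11). ABT-263 inhibits proteins of the BCL-2 family, dasatinib inhibits tyrosine kinases and quercetin is a plant flavonol. Both treatments are used as senolytics, agents that remove senescent cells. They were given by gavage for 5 days in each of 8 cycles separated by 2 weeks, and a further round followed the behavioral tests. Since the labels state no treatment, each older rat was assigned by its name in the authors' table of attributes. The older rats that received vehicle are the controls for treatment, and no rat of this series was both young and given a senolytic.

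Slc35d3 belongs to the SLC35 family, membrane proteins that carry nucleotide sugars from the cytosol into the endoplasmic reticulum and the Golgi apparatus, where they feed glycosylation. The protein is named as an orphan member of this family. In mice, its loss leaves platelets with abnormal dense granules, and in striatal neurons it helps the dopamine D1 receptor leave the endoplasmic reticulum. It has also been linked to autophagy through the complex of BECN1, ATG14 and PIK3C3.

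The start of the gene is shown so that its letters can be set beside those of the genes that varied with it. The promoter below spans chr1:16392731-16393030 of the RefSeq build GRCr8, on the minus strand, with 250 bases before the transcription start and 50 bases after it. Capitals mark 3 short motifs, read on either strand: TGACG (a core of cyclic AMP response elements, here reversed), CCAAT (the CCAAT box) and GGGCGG (the GC box, here reversed).
Slc35d3 promoter: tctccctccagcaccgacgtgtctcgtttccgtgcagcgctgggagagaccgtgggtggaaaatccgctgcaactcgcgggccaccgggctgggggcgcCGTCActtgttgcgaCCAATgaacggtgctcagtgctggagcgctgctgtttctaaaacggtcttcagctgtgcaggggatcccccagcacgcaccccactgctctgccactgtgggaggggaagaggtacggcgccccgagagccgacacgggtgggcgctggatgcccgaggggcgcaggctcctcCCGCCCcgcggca
The GC content of this window was 67.7%, against a median of 51.7% over 33469 rat promoters of the same length, and it held 28 CpG dinucleotides against a median of 7. CCAAT was found in 37.5% of these promoters, GGGCGG in 33.1% and TGACG in 21.2%. Neither TATAAA (14.2% of promoters) nor the E-box CACGTG (6.42%) occurred in the window.

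Slc35d3 was a low gene in this tissue. Its normalized read counts corresponded to whole numbers of reads in all 44 rats, from 10 to 92 reads per rat, in libraries estimated at 10166556 to 24328425 reads. Pooled over the rats of a group, 588 reads in YNG amounted to 3.46 CPM, the reads of the gene per 1000000 estimated reads (exact Poisson 95% interval 3.19 to 3.75). The corresponding value was 1.52 CPM for AV (1.35 to 1.71), 1.89 CPM for AA (1.70 to 2.10) and 1.66 CPM for ADQ (1.48 to 1.86). These intervals cover counting error only. They leave out the spread between rats. Since the gene was picked for its level against YNG, the positions of the intervals test no difference between groups.

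In YNG the normalized read counts of Slc35d3 were 63.9 in rat V1, 59.7 in V2, 64.8 in V3, 70.3 in V4, 37.5 in V5, 33.8 in V6, 61.2 in V9, 82.7 in V10, 85.6 in V11 and 48.9 in V12. V5 and V6 were the low rats of the group and V10 and V11 the high ones. The YNG mean was 60.8 ± 17.1 (SD, n = 10).

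The AV rats had 20.4 (3890), 21.7 (3989), 23.5 (3999), 29.9 (4009), 33.9 (4010), 28.6 (4011), 32.3 (4566), 17.1 (4567), 14.1 (4568), 28.3 (4569), 23.8 (4571) and 15.9 (4572). Their mean was 24.1 ± 6.54 (SD, n = 12), or 39.6% of the YNG mean. No AV rat stood apart, and 11 of the 12 lay below the lowest YNG rat. The exception, rat 4010, was level with V6.

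The AA rats had 26.2 (3983), 31.97 (3984), 20.8 (3985), 61.2 (3988), 17.5 (3996), 24.1 (4035), 22.7 (4036), 24.9 (4069), 21.5 (4070), 21.7 (4077) and 51.5 (4107). Their mean was 29.5 ± 13.9 (SD, n = 11), or 48.4% of the YNG mean. Rats 3988 and 4107 reached into the YNG range, and 3988 was higher than 5 of the 10 YNG rats. The other 9 lay below the lowest YNG rat, and without the 2 high rats the AA mean was 23.5.

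The ADQ rats had 23.8 (3994), 43.4 (4004), 17.4 (4005), 44.6 (4006), 30.2 (4007), 17.02 (4031), 18.8 (4032), 26.6 (4074), 24.6 (4105), 19.6 (4106) and 11.2 (4110). Their mean was 25.2 ± 10.6 (SD, n = 11), or 41.4% of the YNG mean. Rats 4004 and 4006 lay within the YNG range and the other 9 below it. Rat 4110, with 10 reads, was the lowest of all 44 rats.

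**Figure D1:**
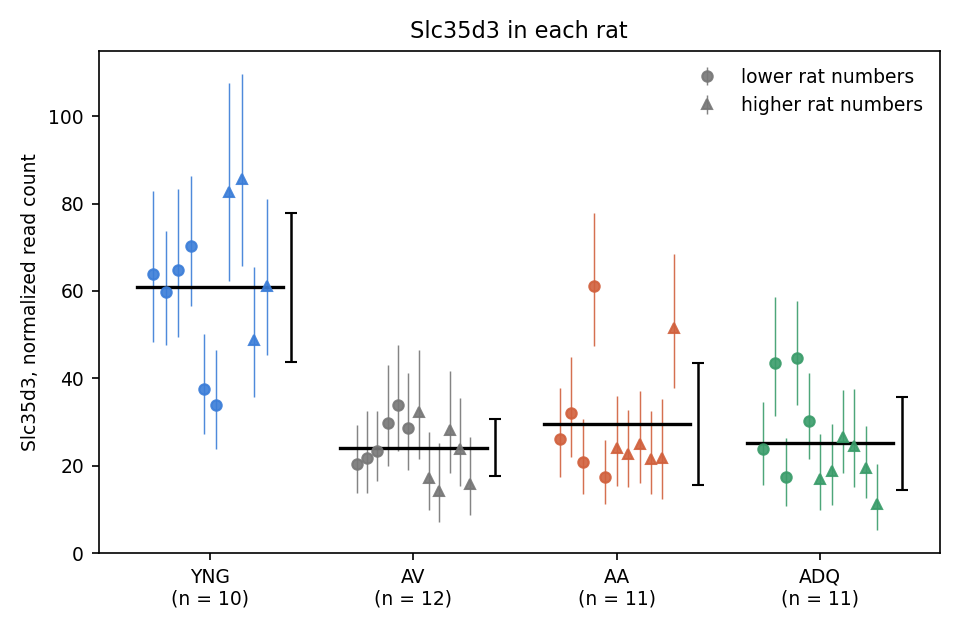
Normalized read count of Slc35d3 (vertical axis) in each rat of the 4 groups. Points are rats with their exact Poisson 95% interval, circles the lower and triangles the higher rat numbers, horizontal lines the group means and capped bars the SD. Of the 34 older rats, 29 lay below the lowest YNG rat at 33.8.

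Ordered by mean, Slc35d3 was highest in YNG, followed by AA, ADQ and AV. On the log2(value + 1) scale the AV rats differed from YNG by -1.29 ± 0.21 (SE), the AA rats by -1.07 ± 0.21 and the ADQ rats by -1.29 ± 0.21. The difference was -1.22 ± 0.18 for the 3 older groups together. The 3 differences share the YNG rats. By size of fall among 13704 genes with a mean of at least 20, Slc35d3 took place 18 in AV, place 52 in AA and place 28 in ADQ. In bulk tissue, fewer cells that express the gene and less RNA per cell cannot be told apart.

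The spread between rats was larger than counting error. The coefficient of variation of Slc35d3 was 28.1% in YNG, where counting of reads alone would give 13.5%. It was 27.1% against 20.5% in AV, 47.3% against 18.2% in AA and 42.3% against 19.02% in ADQ. Counting took the largest share of the spread in AV, and the 2 treated groups had the widest spread.

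The older groups were compared with each other to ask whether the senolytics altered the level of the gene. These comparisons did not enter the selection of Slc35d3 and were tested with limma across all 15598 genes. The difference of AA from AV was 0.22 ± 0.20 (SE; 95% interval -0.19 to 0.63; unadjusted p = 0.290, limma adjusted p = 0.999). An unadjusted p below 0.05 was seen in 4.51% of genes in that comparison. ADQ differed from AV by 0.0043 ± 0.20 (-0.41 to 0.42; p = 0.983, limma adjusted p = 0.996), where 9.32% of genes passed. AA differed from ADQ by 0.21 ± 0.21 (-0.21 to 0.64; p = 0.310, limma adjusted p = 0.981), where 4.53% passed. No difference between older groups was detectable at this depth and number of rats, and each interval still holds differences of more than 0.4 on the log2 scale. Permutation of the group labels (100000 resamples, two-sided) gave p = 0.282 when AA was set against AV, 0.983 when ADQ was, and 0.378 between the treated groups.

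The rats fall into 2 series of rat numbers, up to V6 and 4011 in the lower series and above them in the higher series. The labels do not call these series batches, and the split was known from earlier results. In the lower series Slc35d3 averaged 55.0 ± 15.4 (SD, n = 6) in YNG and 29.7 ± 11.7 (n = 16) in the older rats. In the higher series it averaged 69.6 ± 17.6 (n = 4) and 23.1 ± 8.81 (n = 18). In the higher series 17 of the 18 older rats lay below every YNG rat of their own series, and in the lower series 12 of the 16 did.

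The fall was present within both series and larger in the higher one. The log2 difference of the older rats from YNG was -0.89 ± 0.24 (SE) in the lower series and -1.59 ± 0.25 in the higher. By group, the lower series gave -1.005 (AV), -0.87 (AA) and -0.80 (ADQ), and the higher series -1.65, -1.34 and -1.79. The difference between the 2 falls was 0.70 ± 0.34 (95% interval 0.0041 to 1.39; unadjusted p = 0.0487, limma adjusted p = 0.244), in a test where 20.3% of genes had an unadjusted p below 0.05. It therefore did not pass after adjustment. This test is built from the falls against YNG that the gene was picked for, so its p is given as a description. The difference between the falls also lost the unadjusted threshold when any of 25 of the 44 rats was left out, with the highest p, 0.121, without V11.

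**Figure D2:**
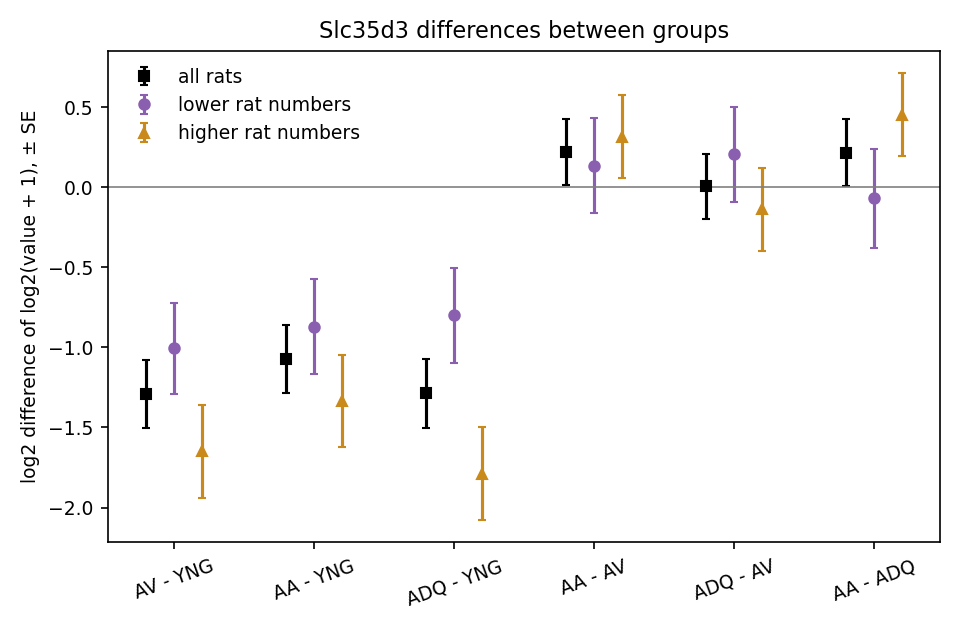
Difference of Slc35d3 on the log2(value + 1) scale (vertical axis, ± SE) for 6 pairs of groups (horizontal axis). Squares use all 44 rats, circles the lower and triangles the higher rat numbers. The older groups sat between -0.80 and -1.79 against YNG, while differences between older groups lay around 0.

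The SLC35 family was examined next, in a list of 27 other members chosen with earlier results known. All 27 were measured, and the family did not move as a group. At an unadjusted p below 0.05, 3 members rose and 3 fell in AV relative to YNG, against 10.6% of all genes higher and 10.7% lower. In AA 2 were higher and 1 lower (all genes, 12.6% and 14.1%), and in ADQ 3 were higher and 4 lower (13.5% and 14.6%). The median log2 difference of the 27 was -0.04, 0.06 and -0.09, against 0.00, 0.00 and 0.01 over all genes tested. Between older groups, none of the 27 passed an unadjusted p below 0.05 in limma in any of the 3 comparisons, and none passed after adjustment. Of all genes, 4.51% (AA against AV), 9.32% (ADQ against AV) and 4.53% (AA against ADQ) passed before adjustment. For 27 genes a count of 0 is not far from these shares.

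Slc35d2, a close relative that transports UDP-N-acetylglucosamine and related sugars, was at 30.2 in YNG, against 43.5 (AV), 35.9 (AA) and 43.1 (ADQ). Its log2 difference from YNG was 0.50 ± 0.19 (unadjusted p = 0.012, limma adjusted p = 0.130) in AV and 0.49 ± 0.19 (p = 0.015, adjusted 0.094) in ADQ, opposite in sign to that of Slc35d3, and 0.26 ± 0.19 in AA. Slc35d1, which carries UDP-glucuronic acid and UDP-N-acetylgalactosamine, had means of 156, 168, 182 and 173 and passed in no group. Slc35a4, a member without an established sugar substrate, was the one family member past the adjusted threshold. It fell by 0.40 in AA (limma adjusted p = 0.041) and by 0.40 in ADQ (adjusted p = 0.027). Slc35a5 was higher in all 3 older groups at the unadjusted threshold, by 0.29, 0.39 and 0.37, with adjusted p from 0.077 to 0.208. Within groups, r with Slc35d3 was 0.06 for Slc35d2, 0.06 for Slc35d1 and -0.09 for Slc35a4.

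In dopamine D1 receptor signaling, 17 genes were measured. The receptor itself, Drd1, was level across the groups, with a mean of 95.3 in YNG, against 92.3 (AV), 95.1 (AA) and 108 (ADQ), and p from 0.187 to 0.864. Drd5, the other D1-like receptor, was at 9.23, 13.5, 18.7 and 8.24, close to the floor of the table, and passed in no group. Over the 17 genes, 5 were lower and 0 higher in AV at the unadjusted threshold in limma, 6 lower and 2 higher in AA, and 6 lower and 2 higher in ADQ. Over all genes 10.7%, 14.1% and 14.6% were lower in the same comparisons, and the median log2 difference of the 17 was -0.16, -0.05 and -0.10. After adjustment 1, 1 and 3 were lower and 0, 0 and 2 higher, where 367, 601 and 1104 of all 15598 genes passed in either direction.

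The lower genes included Caly, which encodes a vesicle protein that binds D1-like receptors. It fell by 0.39 in AV (limma adjusted p = 0.037) and by 0.37 in ADQ (0.036), and its difference in AA was -0.32 (0.071). Gng7, a G protein gamma subunit of striatal D1 signaling, fell by 0.26 in AA (0.049) and by 0.40 in ADQ (0.0040), with -0.23 in AV (0.092). Ppp1r1b, which encodes the phosphatase inhibitor DARPP-32, fell by 0.44 in ADQ (0.020). In ADQ the kinase subunit Prkaca rose by 0.42 (0.034) and the phosphodiesterase Pde10a by 0.53 (0.022). Other enzymes of cyclic AMP signaling were lower in ADQ at the unadjusted threshold in limma. These were the cyclase Adcy5 (-0.22, p = 0.014, adjusted 0.090) and the phosphodiesterase Pde1b (-0.30, p = 0.012, adjusted 0.085).

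Of 9 genes of the BECN1-ATG14-PIK3C3 complex and its partners, 0 passed in AV at the unadjusted threshold in limma and 0 after adjustment, 2 were higher and 1 lower in AA, and 1 was higher in ADQ, where 12.6% of all genes were higher and 14.1% lower in AA and 13.5% higher in ADQ. The median difference of the 9 was -0.06, -0.10 and 0.00. The differences of Becn1 from YNG were -0.15, -0.26 and -0.16, those of Atg14 0.10, 0.14 and 0.16, and those of Pik3c3 -0.06, -0.12 and 0.00. None of these 3 had an adjusted p below 0.05. The regulatory subunit Pik3r4 was higher by 0.17 in ADQ (limma adjusted p = 0.036), and Rubcn, an inhibitor of the complex, had a difference of 0.32 in AA (0.087).

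The list for dense granules and other lysosome-related organelles had 24 of 25 genes measured. In AV 1 was higher and 4 were lower, in AA 3 and 5, and in ADQ 3 and 4. From 10.6% to 13.5% of all genes were higher and 10.7% to 14.6% lower, and the median difference of the 24 was -0.03, 0.02 and 0.01. After adjustment, Ap3d1, a subunit of the AP-3 adaptor, fell by 0.33 in AA (limma adjusted p = 0.044), and Hps3, of the BLOC-2 complex, rose by 0.34 in ADQ (0.020). Vps33a, of the HOPS complex, had differences of -0.21, -0.28 and -0.21 with adjusted p from 0.054 to 0.148. No tested gene of these 4 lists had a difference from YNG as large as that of Slc35d3, as the plot of family and pathway genes shows. Slc35d3 was picked for its fall, so this order is no result about the lists.

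**Figure D3:**
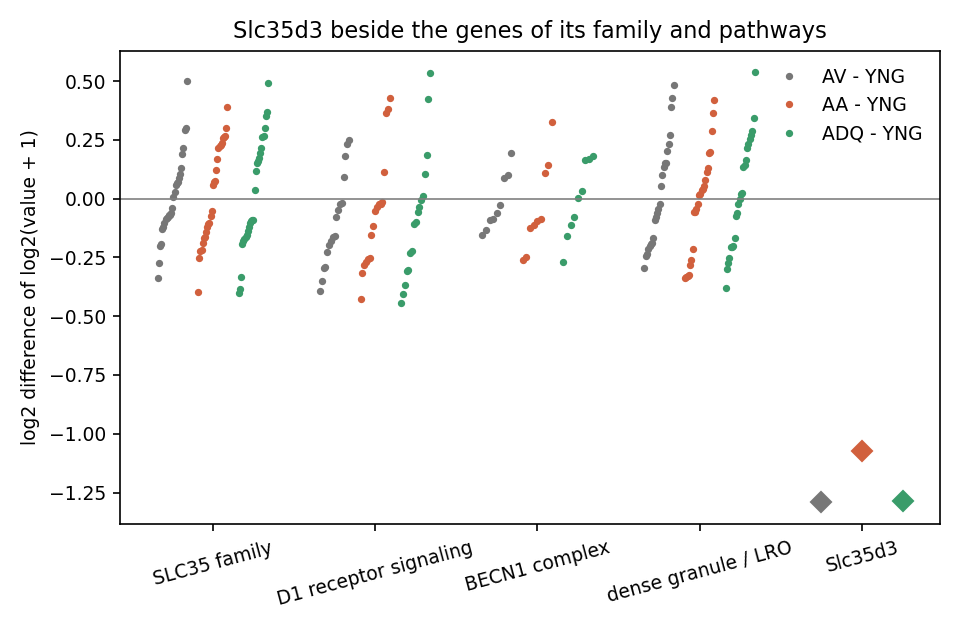
Log2 difference from YNG on the log2(value + 1) scale (vertical axis) for each gene of 4 lists and for Slc35d3 (diamonds), in AV (grey), AA (orange) and ADQ (green). Every point of the lists is 1 gene, sorted within its group. Slc35d3, which was picked for its fall, lay between -1.07 and -1.29, below all points of the lists.

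Genes that varied with Slc35d3 among rats of the same group were sought among 13703 genes with a mean of at least 20, after the mean of each of the 4 groups was removed from the log2 values. The coefficients are descriptions over 44 rats whose values share library depth and scaling. They ran from -0.55 to 0.59, with a median of -0.02 and 5th and 95th percentiles of -0.36 and 0.32.

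The highest coefficient belonged to Zbtb46 (0.59 ± 0.14, jackknife SE), which encodes a zinc finger transcription factor known from dendritic cells and endothelium. It was followed by Per1 (0.58 ± 0.11), a negative regulator of the circadian clock that also responds to neuronal activity. In rat 3988, the AA rat with the highest Slc35d3 of all older rats, Per1 was 1898 against an AA mean of 1364, and Zbtb46 was 187 against 85.9. Next were Adamtsl5, an extracellular matrix protein (0.57), the phospholipase Plch2 (0.55), Pprc1, a coactivator of mitochondrial biogenesis (0.55), Grid2ip, a scaffold of the delta 2 glutamate receptor (0.54), and Radil, an effector of the small GTPase Rap (0.54). Kcnc1, a fast potassium channel of interneurons (0.53), Myo7a, an unconventional myosin (0.52), and Fbxw8, a ubiquitin ligase subunit (0.52), completed the 10. Their coefficients were positive in each of the 4 groups taken alone.

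At the other end were Calu, a calcium-binding protein of the endoplasmic reticulum (-0.55 ± 0.11), Lias, which makes lipoic acid in mitochondria (-0.54), Higd1a, a mitochondrial protein of the hypoxia response (-0.53), and Srp19, a subunit of the signal recognition particle (-0.53). Lias had a coefficient of 0.11 in YNG and Srp19 one of 0.05 in ADQ. Calu and Higd1a were negative in all 4 groups. All 14 genes named here kept their sign in both series. They were picked as extremes over these same rats, so agreement of sign between groups or series is no separate support.

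**Figure D4:**
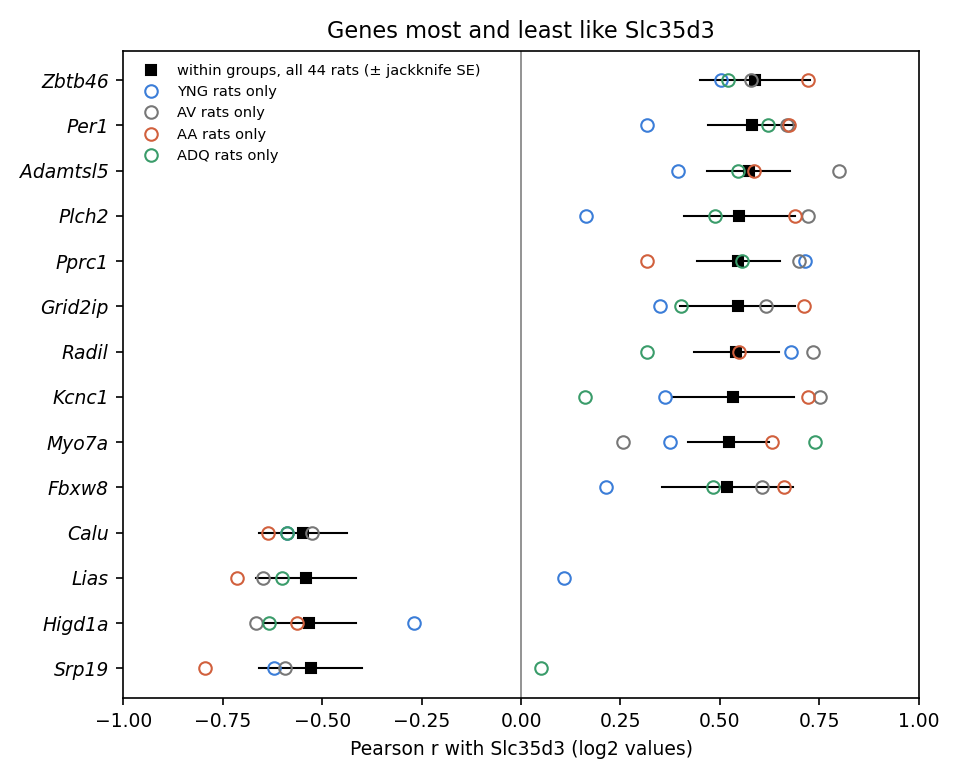
Pearson r with Slc35d3 (horizontal axis) for the 10 genes most like it and 4 of the genes least like it. Black squares are r within groups over all 44 rats with the jackknife SE, and open circles r among the rats of 1 group. Of the 14 genes, which were picked over these same rats, 12 had the same sign in all 4 groups.

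The group means were not used to pick these genes. In limma, 0 of the 10 genes most like Slc35d3 were lower than in YNG at an unadjusted p below 0.05 in AV, AA or ADQ, and 0 after adjustment. Of all genes, 10.7%, 14.1% and 14.6% were lower at the unadjusted threshold. For 10 genes a count of 0 is near these shares. In AA 8 of the 10 were higher, against 12.6% of all genes. In AV and ADQ 1 each was higher, against 10.6% and 13.5%. Rat 3988, the AA rat with the highest Slc35d3, had the highest AA value of 7 of the 10 genes. Its Grid2ip was 397 against 33.3 to 55.2 in the other AA rats, and its Kcnc1 4038 against 1201 to 1961. Without rat 3988, an alternative added after the data were seen, 4 of the 10 were higher in AA, against 10.8% of all genes. Kcnc1 had differences of 0.12, 0.35 and 0.27 in AV, AA and ADQ (adjusted p = 0.535, 0.054 and 0.104), and Plch2 had 0.08, 0.56 and 0.18. None of the 8 passed after adjustment, with the smallest adjusted p at 0.054. These genes vary together across rats, so the 8 are not 8 independent results. Of the 4 named at the other end, 3 were lower in AA, against 14.1% of all genes. Among these 3, Calu passed the adjusted threshold (-0.26, limma adjusted p = 0.049). Without rat 3988, Calu alone of the 4 was lower in AA at the unadjusted threshold (-0.24, adjusted p = 0.091). The promoters of the 10 genes held CCAAT in 1 of 10, GGGCGG in 5, TGACG in 1, TATAAA in 1 and CACGTG in 0.

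Measures of the libraries were set beside Slc35d3 in the same way. Its within-group r was -0.19 with the estimated reads per rat, -0.28 with the total of the normalized values, and -0.38 with the mean log2 level of 77 ribosomal protein genes, which was chosen after its values were seen. That level averaged 10.3 in YNG, and 9.87, 9.70 and 9.68 in AV, AA and ADQ. Over both series together it was thus lower in the older groups, as Slc35d3 was. In the higher series alone AV was at 10.13 against 10.05 in YNG, while AA and ADQ were at 9.75 and 9.71. Among rats of a group the ribosomal level tended to be low where Slc35d3 was high. This within-group r was -0.14 in the lower series and -0.49 in the higher. V11, with the highest Slc35d3, had the lowest ribosomal level of all 44 rats, 9.15. With this level as a term in the fit, added after the data were seen, AV differed from YNG by -1.48 ± 0.21, AA by -1.33 ± 0.23 and ADQ by -1.56 ± 0.23.

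**Figure D5:**
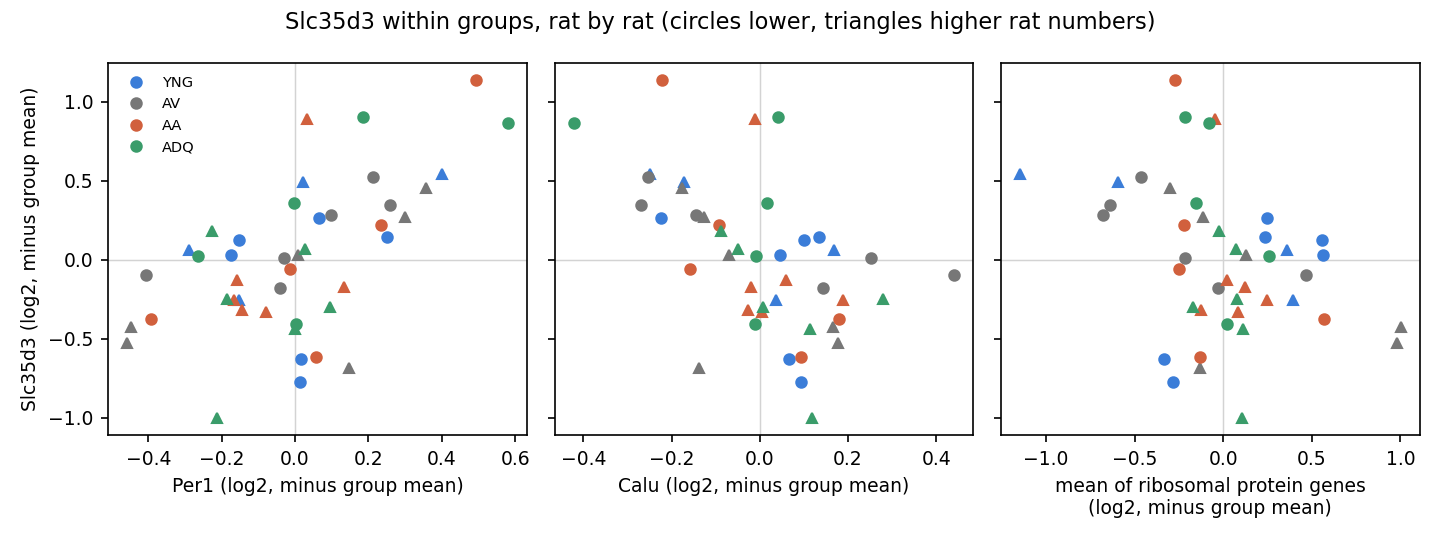
Slc35d3 (vertical axis) against Per1, Calu and the mean of the ribosomal protein genes (horizontal axes), each as log2 value minus the mean of the rat's group. Points are the 44 rats, coloured by group, circles the lower and triangles the higher rat numbers. The r within groups was 0.58, -0.55 and -0.38.

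Markers of the cell types that the dissection could hold were examined because Slc35d3 is best known from striatal neurons. Of 15 striatal medium spiny neuron markers, 14 were measured. Their summed level ran from 6709 to 8047 in YNG, against 6338 to 8578 (AV), 4906 to 8548 (AA) and 6845 to 8773 (ADQ), so the groups overlapped. Most of it came from Pdyn and Ppp1r1b, which granule cells also express. Drd2 and Tac1 averaged 16.8 to 21.9 and 15.2 to 21.3. The mean log2 of the list had a within-group r of 0.02 with Slc35d3. None of the 14 had a mean of 0, and 1, 2 and 2 of the 14 were higher and 1, 2 and 2 lower in AV, AA and ADQ, where 10.6%, 12.6% and 13.5% of all genes were higher and 10.7%, 14.1% and 14.6% lower. The list's median difference was 0.00, -0.11 and -0.09.

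The defining genes of the DG were high. Prox1, the granule cell transcription factor, averaged 2500 in YNG, against 2345 (AV), 2418 (AA) and 2811 (ADQ), and C1ql2 7275, 5738, 5507 and 5429. The summed level of 13 granule cell markers ran from 14691 to 20512 in YNG, against 8748 to 19692 (AV), 5808 to 20540 (AA) and 15338 to 19363 (ADQ). Of 11 tested, 2 were lower in AV and 3 each in AA and ADQ, C1ql3 and Calb1 among them, and 0 were higher in limma at either threshold, while 10.7%, 14.1% and 14.6% of all genes were lower. The list's median difference was -0.14, -0.15 and 0.05. C1ql3 fell by 0.67, 0.94 and 0.71. The list's r with Slc35d3 was -0.08 over all rats, with 0.34 in the lower series and -0.45 in the higher. Markers of CA1 pyramidal cells varied widely between rats. Their summed level ran from 2520 to 17628 in YNG, against 2160 to 29163 (AV), 1976 to 43510 (AA) and 2558 to 11776 (ADQ). The highest CA1 sum in AA was thus above the highest granule cell sum, 20540. The dissections were therefore not uniform in these markers.

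Genes of other lists also differed from YNG at the unadjusted threshold. Endothelial markers were higher in AV for 5 of 5 genes, in AA for 3 and in ADQ for 1, where 10.6%, 12.6% and 13.5% of all genes were higher. Their median difference was 0.88, 0.55 and 0.34. Flt1 rose by 1.06 in AV. The summed level of the endothelial list ran from 1125 to 3872 in YNG and 2045 to 8890 (AV), 2119 to 3403 (AA) and 2085 to 2564 (ADQ) in the older groups. Oligodendrocyte markers were higher in 7, 4 and 2 of 8, against the same shares of all genes, with a median of 0.41, 0.30 and 0.13, and 0 of the 8 passed after adjustment in limma in any older group. Mbp, at 49300 in YNG and 65850 in AV, did not pass in AV (p = 0.066). Immature neuron markers were lower in 3, 2 and 1 of 9 (all genes, 10.7%, 14.1% and 14.6%). They were higher in 2, 0 and 1 (10.6%, 12.6% and 13.5%), with a median of -0.34, -0.25 and -0.19. After adjustment 2 were lower in AV and 2 in AA, Igfbpl1 and Dcx, where 367 and 601 of all 15598 genes passed in either direction. Igfbpl1, with means from 7.17 to 17.3, had differences of -1.30, -1.08 and -0.83 (limma adjusted p = 0.0072, 0.037 and 0.065). Those of Dcx were -0.46, -0.38 and -0.19 (0.013, 0.048 and 0.249). The r with Slc35d3 within groups was 0.03 for endothelial markers (-0.21 in the lower and -0.05 in the higher series) and 0.12 for immature neuron markers (0.16 and 0.08). For oligodendrocyte markers it was -0.05 over all rats, with opposite signs in the lower series (-0.54) and the higher (0.41). Their part in the fall of Slc35d3 was not tested.

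For the remaining lists, the within-group r with Slc35d3 was 0.33 for interneuron markers (Gad1 and Gad2 the highest) and 0.31 for immediate early genes, both near 0 in the lower series (0.04 and 0.10) and higher in the other (0.57 and 0.42). It was 0.14 for CA1 markers (Wfs1, Mpped1), with -0.39 in the lower and 0.38 in the higher series. For CA3 and mossy cell markers (Cpne4, Ap2s1) it was 0.05, with 0.50 and -0.36. It was -0.27 for microglia (Csf1r, C1qa), 0.00 for choroid plexus (Ttr, Aqp1) and -0.20 for platelets and red blood cells (Hbb, Hba-a2). The sign also differed between the series for astrocytes (Gfap, Aldoc), at -0.07 with -0.46 and 0.21, and for meninges (Dcn, Slc6a13), at 0.13 with -0.28 and 0.43. The immediate early genes were higher in 7 of 11 in AA, 2 in AV and 1 in ADQ (all genes, 12.6%, 10.6% and 13.5%), with a median of 0.42, 0.24 and -0.13. The interneuron markers were higher in 4 of 8 in AA, 1 in AV and 2 in ADQ, against the same shares, with a median of 0.34, 0.15 and 0.20, and 1 was lower in ADQ, Pvalb (-0.47, p = 0.040), named after its values were seen. The summed level of the platelet and red blood cell list ran from 1591 to 18178 in YNG and from 2360 to 63692 in the older rats, and 0 of its 5 tested genes passed in any older group at either threshold in limma.

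The genes beside Slc35d3 on the chromosome were examined for a fall in common. The protein-coding neighbours, in the order of the RefSeq build GRCr8, are Olig3, Ifngr1, Il22ra2, Il20ra and LOC102547604 on one side and Pex7, Map3k5, Map7, Bclaf1 and Mtfr2 on the other. Of these 10, 5 were tested and Il22ra2 was below the minimum, with means from 0.778 to 1.87. The interferon gamma receptor gene Ifngr1 had differences of 0.13, 0.03 and -0.09 in AV, AA and ADQ, and Pex7, an import receptor of peroxisomes, -0.10, -0.04 and 0.08. Map7, which encodes a microtubule-associated protein, was higher in all 3, by 0.39, 0.40 and 0.41 (limma adjusted p = 0.063, 0.049 and 0.034). The kinase gene Map3k5 was higher by 0.51 in ADQ (0.032), with 0.07 and 0.27 in AV and AA, and Bclaf1 had 0.11, 0.10 and 0.25 (0.593, 0.597 and 0.154). None of the 5 was lower than YNG at an unadjusted p below 0.05 in limma, nor after adjustment. Of all genes, 10.7%, 14.1% and 14.6% were lower in AV, AA and ADQ at the unadjusted threshold. For 5 genes a count of 0 is near these shares, so it is no result about this stretch of the chromosome.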

How the data were processed

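Total RNA of the DG from 1 hemisphere per rat was enriched for poly(A) RNA and read on an Ion sequencer. Per the methods of the paper and the submitters' processing notes, the authors aligned reads to the rn6 build with STAR 2.5.3a in Partek and scaled them with DESeq2. The annotation and counting model are not given in the sources used here. The deposited table holds signal values, reads per row divided by a factor per library. From 58.0% to 63.9% of low values were whole multiples of 1 read (tolerance 0.05), so no count test was used. All 44 Slc35d3 values were whole.

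The 24694 rows were summed to 18347 identifiers. Genes with a mean of at least 5 (15598) were fitted as log2(value + 1) with limma 3.58.1 (empirical Bayes with trend) in R 4.3.3, all 4 groups in 1 fit, two-sided, with Benjamini-Hochberg adjustment over all genes. On simulated data with 200 genes changed by log2 1, the fit recovered most of the changed genes. Each rat gave 1 library. Likeness is Pearson's r of log2 values within groups, and its SE is from a jackknife over rats. Counting intervals are exact Poisson at 95%. Tables, permutations and figures were made in Python 3.11.15 (pandas 2.3.3, numpy 2.4.6, scipy 1.17.1, figures with matplotlib 3.10.9).

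Slc35d3, the gene lists and the split by rat number were chosen with earlier results of these data known. Named genes are the 10 highest and 5 lowest r (mean at least 20), members of 4 family and pathway lists with an adjusted p below 0.05 against YNG or otherwise the smallest p up to 3, fixed members of those lists, 5 neighbours on each side, and the 2 highest markers of each marker list. Of these, 2 genes are not reported here. The immediate early genes as a list, C1ql3, Calb1, Igfbpl1, Dcx, the ribosomal genes and the clock genes were named beside these. Of them, Igfbpl1, Dcx and the last 2 sets were named after their values were seen. Alternatives were pseudocounts of 0.5 and 5, no filter or a mean of at least 20, upper quartile scaling, the same total per rat, array weights, only the groups compared, the series as a term or alone, permutation, Spearman's rho, and leaving out each rat. Columns of the authors' own comparisons were not used.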

Additional observations from a re-analysis of the deposited data

Results flagged for a closer look

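Rat 4107 of AA, with a Slc35d3 value of 51.5, stood apart from the other 5 AA rats of the higher series, which ran from 21.5 to 24.9. Its gap took 88.7% of the range of these 6 rats, above Dixon's 95% critical value of 62.5%. In all, 9 sets of 4 to 10 rats were examined in this way, the 10 YNG rats and the 8 combinations of group and series, and chance flags about 1 in 20. Without the 2 highest AA rats, 4107 and 3988, the AA mean was 23.5. The AV mean was 24.1 with all its rats and 22.3 without its 2 highest. With the 2 highest rats left out of both groups, the AA mean thus stayed above that of AV.

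The fall of Slc35d3 in the older rats differed between the lower and the higher rat numbers by 0.70 on the log2 scale at an unadjusted p of 0.0487 (limma adjusted p = 0.244). Of all genes, 20.3% had an unadjusted p below 0.05 in this test. It is built from the falls against YNG that Slc35d3 was picked for, so its p is a description. What separates the series is not given in the labels.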

How the results depend on the processing

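The fall of Slc35d3 against YNG kept its direction in every alternative run. Over the alternatives other than leaving out a rat, it ran from -1.65 to -1.005 in AV, -1.34 to -0.87 in AA, -1.79 to -0.80 in ADQ and -1.59 to -0.89 in all older rats. Only the ADQ value moved by more than the SD of the YNG rats, to -0.80 in the lower and -1.79 in the higher series. Leaving out each rat gave -1.38 to -1.23 in AV, -1.19 to -1.01 in AA, -1.38 to -1.19 in ADQ and -1.30 to -1.16 for all older rats.

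Between older groups no alternative gave an unadjusted p below 0.05. ADQ against AV turned to -0.25 with array weights, -0.14 in the higher series and -0.076 with the ribosomal term, and ran from -0.086 to 0.10 when a rat was left out. AA against ADQ turned to -0.071 in the lower series and ran from 0.10 to 0.31 without a rat. AA against AV ran from 0.11 to 0.28 without a rat, and was 0.01 with array weights. The difference between series was 0.73 (p = 0.0530) at the same total per rat and ran from 0.57 to 0.85 without a rat. Rats whose omission lost its unadjusted threshold were V5, V6, V9, V10, V11, 4009, 4010, 4011, 4567, 4568, 4572, 3984, 3988, 4035, 4036, 4069, 4070, 4077, 4004, 4006, 4007, 4031, 4032, 4106 and 4110, with p from 0.0513 to 0.121.

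The 15 genes named for likeness depended on the rats used. Of the 15, 0 were named from the lower series alone, 1 from the higher, 9 at the same total per rat, 6 by Spearman's rho and 7 with the series removed, and from 5 (without V6) to 15 without a rat. Omitting 4568 (8), 3988 (8), 3996 (7), 4107 (9), 4004 (9), 4006 (8) or 4110 (9) also left fewer than 10 (number kept in parentheses). Counts among the 181 list genes fell after adjustment, from 43 to 9 in AV, 50 to 11 in AA and 41 to 13 in ADQ against YNG. For AA and ADQ against AV and AA against ADQ they fell from 12, 28 and 14 to 0. Of all 15598 genes, 10.6%, 12.6% and 13.5% were higher and 10.7%, 14.1% and 14.6% lower against YNG before adjustment, and 367, 601 and 1104 passed after it. Between older groups 4.51%, 9.32% and 4.53% passed before adjustment and 0 after it. The cause of the changes in named genes and counts was not tested. No paired analysis was possible because each rat belonged to 1 group and gave 1 library. Reads ran from 10 to 92 per rat. Taken over a whole group, counting alone gives a coefficient of variation from 13.5% (YNG) to 20.5% (AV). For a single rat with few reads it is larger.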

Other observations

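Clock genes were examined after Per1 appeared among the genes most like Slc35d3, and the list was chosen after their values were seen. The within-group r with Slc35d3 was 0.47 ± 0.11 (jackknife SE) for Ciart, which encodes a repressor of the clock, 0.39 ± 0.18 for Cry1, 0.32 ± 0.16 for Per2, 0.28 ± 0.19 for Cry2, 0.25 ± 0.16 for Per3 and 0.24 ± 0.17 for Nr1d1. It was 0.15 for Nr1d2, 0.07 for Bhlhe40, 0.04 for Clock, 0.02 for Dbp and -0.20 ± 0.16 for Arntl, the activator that pairs with CLOCK. Over all rats, 11 of the 12 had a positive coefficient, but 10 did in the lower series and 7 in the higher, and 6 in both. Dbp, Nr1d2, Clock and Nr1d1 were below 0 in the higher series, from -0.16 to -0.03, and Bhlhe40 was -0.44 in the lower. Ciart was positive in all 4 groups, from 0.27 in YNG to 0.66 in AV.

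Against YNG these genes showed no common fall. Per1 had differences of 0.03, 0.25 and -0.05 in AV, AA and ADQ, Per2 0.30, 0.47 and 0.33, and Ciart -0.29, -0.01 and -0.36. Dbp fell by 0.56 in ADQ (limma adjusted p = 0.012) and Nr1d1 by 0.37 (0.028). The time of day at which tissue was taken was not analysed here.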
